A study of Mus musculus with 8 samples.

Results

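The genes described here are those of the mTOR pathway core and the 4E-BP translation inhibitors. They were taken from arrays of B16F0 exosomes and of B16F0 cells. B16F0 is a pigmented mouse melanoma line, and exosomes are small membrane vesicles that carry RNA out of cells. The 10 named genes were Tsc1, Tsc2, Rheb, Mtor, Rptor, Rictor, Akt1s1, Deptor, Eif4ebp1 and Eif4ebp2, and a gene was used where a transcript cluster of the array carried its symbol alone. This gave 9 of 14860 genes, each with 1 transcript cluster, while the cluster of Eif4ebp1 also carried a second gene's symbol and is not analysed here. The set was drawn up because Eif4ebp2 and Tsc1 were already known to be higher in exosomes. Differences between exosomes and cells are therefore given for all 9 genes as a description, with no test of their own.

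The 2 groups were exosomes isolated from serum-free medium that B16F0 cells had conditioned for 24 h, and parental B16F0 cells kept for 24 h in serum-free medium, with 4 samples each. Both came from the same line, no treatment was labelled other than the absence of serum, and each sample had 1 Affymetrix mouse exon array. Whether the 4 samples of a group were separate cultures is not labelled. The p-values printed for other pathway genes therefore rest on a spread between samples that may be technical. A lower level in exosomes can mean fewer vesicles with a transcript, fewer copies per vesicle or only a smaller share of the RNA. These cannot be told apart here. Values are log2 expression values, relative to the RNA on each array, and are compared for each gene between arrays, not between genes.

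mTOR is a protein kinase that couples nutrients and growth factors to protein synthesis. It works in a complex with raptor, called mTORC1, and in a second complex with rictor, called mTORC2. The GTPase Rheb switches mTORC1 on, and the complex of Tsc1 and Tsc2 switches Rheb off. PRAS40, the product of Akt1s1, and Deptor restrain mTOR directly. Active mTORC1 phosphorylates the 4E-BP proteins, which otherwise hold the cap-binding factor eIF4E and block cap-dependent translation. The pathway is commonly active in melanoma.

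The promoters of Eif4ebp2 and Tsc1, which were higher in exosomes, and of Rheb, which was lowest relative to cells, are shown so that their sequence can be set beside those values. Each is the stretch of 250 bases before the annotated start in RefSeq, build GRCm38.p6, written 5′ to 3′ on the gene's strand. Capitals mark a match to any of 5 motifs searched on both strands. The letters TATAAA stand for the TATA box and those of CCAAT for the box of that name. For the GC box the letters GGGCGG were used. For the core that ETS factors bind they were CCGGAA. For the E-box they were CACGTG. The sites are chr10:61452670-61452919 on the minus strand for Eif4ebp2, chr2:28640983-28641232 on the plus strand for Tsc1 and chr5:24842362-24842611 on the minus strand for Rheb.
Eif4ebp2: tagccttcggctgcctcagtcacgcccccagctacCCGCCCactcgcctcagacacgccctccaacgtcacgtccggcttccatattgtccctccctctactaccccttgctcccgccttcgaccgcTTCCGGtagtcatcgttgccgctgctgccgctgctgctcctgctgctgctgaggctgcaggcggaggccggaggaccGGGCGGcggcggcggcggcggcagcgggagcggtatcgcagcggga
Tsc1: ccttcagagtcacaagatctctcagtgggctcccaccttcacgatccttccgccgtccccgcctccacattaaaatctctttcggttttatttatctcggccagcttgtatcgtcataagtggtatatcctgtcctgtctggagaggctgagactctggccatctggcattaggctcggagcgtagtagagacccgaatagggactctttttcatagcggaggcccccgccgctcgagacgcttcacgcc
Rheb: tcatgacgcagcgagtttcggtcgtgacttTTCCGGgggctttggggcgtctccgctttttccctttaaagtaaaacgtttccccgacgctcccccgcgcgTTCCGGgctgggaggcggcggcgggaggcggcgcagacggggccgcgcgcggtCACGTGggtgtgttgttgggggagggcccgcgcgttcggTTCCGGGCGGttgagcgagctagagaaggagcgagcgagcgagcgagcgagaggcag

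The Eif4ebp2 stretch held 2 GC boxes and 1 ETS core with a GC content of 70%. The Rheb stretch, at 68% GC, held 3 ETS cores, 1 GC box that overlaps an ETS core, and 1 E-box. None of the 5 motifs was found in the Tsc1 stretch, at 54.4% GC. The median GC content was 60.4% over promoters of genes above background in cells. Promoters were in the table for 8 of the 9 genes. An ETS core was present in 6 of these 8, namely Tsc2, Rheb, Mtor, Rictor, Akt1s1 and Eif4ebp2, against 22% of 9686 promoters of genes above background in cells and 12% of all 32851 promoters. GC boxes were present in 5 of the 8, close to the 59% of promoters of genes above background in cells and above the 32.7% of all promoters. CCAAT boxes were in 2 of the 8, those of Mtor and Rictor, against 35.5% and 33.8%. The E-box was found in Rheb alone, against 8.54% and 6.02%, and the TATA box in 0 of the 8, against 5.92% and 12.4%. As the Tsc1 stretch held none of these motifs, the promoters of Eif4ebp2 and Tsc1 could share none. Any link between promoter sequence and the exosome values was not tested.

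Several facts of the arrays as a whole bear on the values. The 75th percentile of an array was 7.06 to 7.19 in exosomes and 8.46 to 8.60 in cells. Odour, pheromone and taste receptor genes, which stood for background, had array medians of 4.10 to 4.27 in exosomes and 3.54 to 3.69 in cells. A gene was taken as above background on an array when it exceeded the 95th percentile of these receptor genes, which was 6.42 to 6.57 in exosomes and 5.71 to 5.77 in cells. All 9 genes exceeded it on all 4 exosome arrays, where 34.9% of all genes did. All 9 also exceeded it on all 4 cell arrays, where 61.8% did. Of the melanocyte markers, 7 of 7 measured were above background on every array, including Tyr, Dct, Tyrp1 and Pmel. These markers of the line were themselves lower in exosomes, 7 of 7 by limma and under each scaling, with a median log2 difference of -2.06 as deposited. Their summed log2 values were 69.7 to 71.4 in exosomes and 85.5 to 86.2 in cells. Of 26 measured markers of T cells, macrophages, fibroblasts, endothelium, epithelium and red cells, 2 exceeded the threshold on every exosome array and 4 on every cell array. The pair in exosomes was the collagen genes Col1a1 and Col1a2, and in cells Cd68 and Cdh1 were added. Summed over the 26 markers, log2 values were 132 to 133 in exosomes and 128 to 131 in cells, with 6 markers (23.1%) called higher, 1 (3.85%) lower and 19 not called, where limma called 14.6% of all genes higher and 52.1% lower. Of the 6 called higher, 5 were above background on no exosome array, namely Cd2, Ptprc, Adgre1, Itgam and Col3a1, and with arrays centred on receptor genes 0 of the 26 were higher and 19 lower. The part of these markers' cells in the results, and that of the general fall of the melanocyte markers, was not tested.

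The 9 genes differed in direction. Eif4ebp2 and Tsc1 were higher in exosomes, Akt1s1 was nearly level, and Deptor, Rptor, Rictor, Tsc2, Mtor and Rheb were lower. The limma fit over all transcript clusters placed 2 genes higher and 6 lower, or 8 of 9, where it called 66.6% of all genes, 14.6% higher and 52.1% lower. The groups did not overlap for the same 8 genes, where 65.7% of all genes had groups that did not overlap. Since the set was chosen from this contrast, nothing is read from these counts. The median log2 difference of the 9 genes was -0.90, beside -0.39 over all genes.

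**Figure D1:**
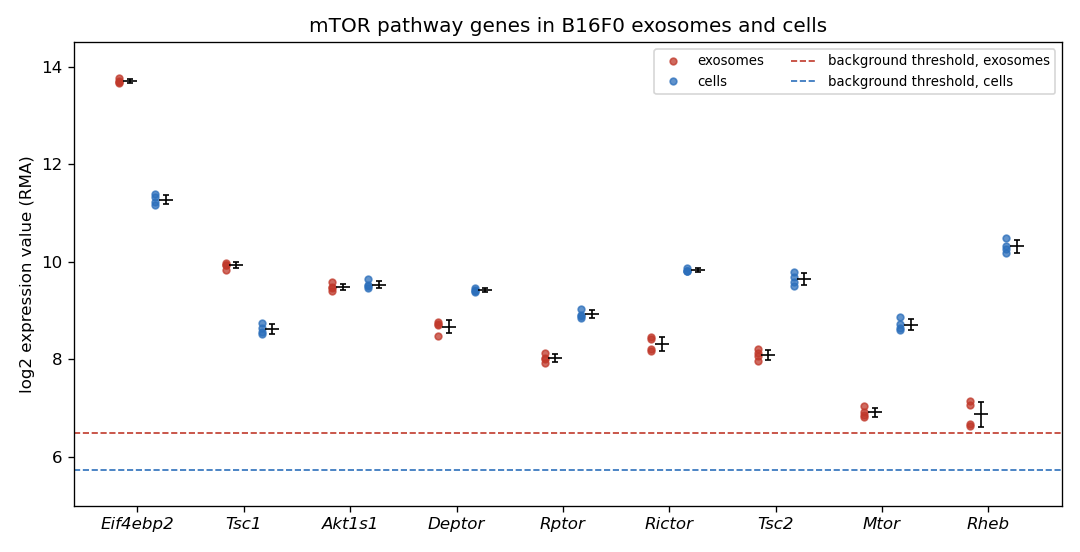
Log2 expression values (vertical axis) of the 9 genes on each exosome array (red, left) and each cell array (blue, right), with mean and SD (black, n = 4) and the mean background threshold of each group (dashed). Only Eif4ebp2 and Tsc1 have all exosome values above all cell values, and the exosome values of Rheb and Mtor lie just over the threshold.

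Among the inhibitors that act upstream of Rheb, the partners of the Tsc complex lay on opposite sides. Tsc1, or hamartin, which stabilizes Tsc2, had log2 values of 9.84, 9.94, 9.94 and 9.99 in exosomes, against 8.75, 8.56, 8.64 and 8.51 in cells. The lowest exosome value lay 1.09 above the highest cell value, and the log2 difference was 1.31 ± 0.08 (SE, n = 4 arrays per group), or 2.48-fold higher. Tsc2, or tuberin, which carries the activity that makes Rheb hydrolyse its GTP, had 7.96, 8.08, 8.14 and 8.20 in exosomes, against 9.79, 9.59, 9.69 and 9.51 in cells. All 4 exosome arrays were below all 4 cell arrays, with a log2 difference of -1.55 ± 0.09, or 2.93-fold lower. A within-array comparison removes any offset common to an array. The log2 value of Tsc1 minus that of Tsc2 was 1.83 ± 0.05 in exosomes and -1.03 ± 0.02 in cells (SD, n = 4 each). The ratio of Tsc1 to Tsc2 signal was thus 7.28-fold higher in exosomes, and 6.73-fold to 7.28-fold higher under the 4 scalings tried. Tbc1d7, the third subunit of the Tsc complex, was lower, as Tsc2 was, with 7.94, 8.03, 8.01 and 8.03 in exosomes and 10.03, 10.02, 9.96 and 10.15 in cells. Tbc1d7 fell by 2.04 on the log2 scale (SE 0.07, limma adjusted p = 5.53e-08), and the ratio of Tsc1 to Tbc1d7 signal was 10.2-fold higher in exosomes.

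Rheb, the activator that the Tsc complex restrains, had the lowest value relative to cells of the 9 genes under each scaling. In the deposited values its difference was also the largest in size, but with quantile normalization and cyclic loess it was smaller in size (-2.28 and -1.99) than those of Eif4ebp2 (2.79 and 3.08) and Tsc1 (2.45 and 2.69). Its log2 values were 6.64, 6.68, 7.13 and 7.06 in exosomes, against 10.19, 10.26, 10.32 and 10.49 in cells. The difference was -3.44 ± 0.14, or 10.9-fold lower, and the highest exosome value lay 3.05 below the lowest cell value. The exosome arrays fell into a lower pair (replicates 1 and 2) and a higher pair (replicates 3 and 4), which made the SD of 0.26 the largest of any gene in either group. On average Rheb exceeded the background threshold of the exosome arrays by 0.38 and that of the cell arrays by 4.59. Within arrays, Tsc1 minus Rheb was 3.05 ± 0.22 in exosomes and -1.70 ± 0.22 in cells (SD, n = 4 each), so the ratio of the inhibitor's signal to that of the activator was 26.9-fold higher in exosomes.

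Of the kinase and the scaffolds of its complexes, all 3 were lower in exosomes in the deposited values, but Rptor was higher with quantile normalization (0.45) and cyclic loess (0.56). Mtor, the kinase, had log2 values of 6.86, 7.04, 6.82 and 6.92 in exosomes, against 8.86, 8.61, 8.73 and 8.64 in cells. The groups were apart by 1.56, and the difference was -1.80 ± 0.09, or 3.48-fold lower, with exosome values only 0.42 above their threshold on average. Rptor, which encodes raptor, the scaffold that brings substrates to mTORC1, had 7.92, 8.00, 8.03 and 8.13 in exosomes, against 9.03, 8.85, 8.92 and 8.88 in cells. Its difference was -0.90 ± 0.08, or 1.86-fold lower, with no overlap. Rictor, the scaffold of mTORC2, had 8.20, 8.18, 8.42 and 8.46 in exosomes, against 9.88, 9.81, 9.82 and 9.82 in cells. The difference was -1.51 ± 0.09, or 2.86-fold lower. Exosome replicates 3 and 4 were again the higher pair, as for Rheb, and the 75th percentile of the whole array was also higher on these arrays (7.18 and 7.19) than on replicates 1 and 2 (7.06 and 7.10). The part of this in the values of Rheb and Rictor was not tested. Rptor minus Rictor was -0.30 ± 0.09 in exosomes and -0.91 ± 0.05 in cells, so the ratio of the mTORC1 scaffold's signal to that of the mTORC2 scaffold was 1.53-fold higher in exosomes. Mlst8, a subunit of both complexes, fell by 1.38 on the log2 scale (SE 0.11, limma adjusted p = 5.1e-06), with 6.71, 7.05, 7.04 and 7.13 in exosomes and 8.48, 8.29, 8.43 and 8.26 in cells. The exosome values of Mlst8 lay only 0.49 above their threshold on average. The call of Mlst8 was lost with cyclic loess (log2 difference 0.04) and likewise with quantile normalization.

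Of the inhibitors that bind mTOR or its complex, Akt1s1 was nearly level and Deptor lower in the deposited values, and both were higher with quantile normalization (1.05 and 0.48) and cyclic loess (1.29 and 0.66). Akt1s1, whose product PRAS40 is released from raptor when Akt phosphorylates it, had 9.41, 9.58, 9.46 and 9.48 in exosomes, against 9.64, 9.47, 9.50 and 9.52 in cells. It was the sole gene of the 9 whose groups overlapped, with a difference of -0.05 ± 0.07. Deptor, whose product binds mTOR in both complexes, had 8.70, 8.48, 8.73 and 8.76 in exosomes, against 9.46, 9.42, 9.41 and 9.37 in cells. The groups were apart by 0.61, and the difference was -0.75 ± 0.08, or 1.68-fold lower. Akt1s1 minus Mtor was 2.57 ± 0.05 in exosomes and 0.82 ± 0.06 in cells, a signal ratio 3.37-fold higher in exosomes.

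Eif4ebp2, which encodes 4E-BP2, the end point of the pathway on translation, had the largest positive difference of the 9 genes. Its log2 values were 13.68, 13.77, 13.66 and 13.71 in exosomes, against 11.39, 11.16, 11.32 and 11.24 in cells. The difference was 2.43 ± 0.07, or 5.38-fold higher, and the groups were apart by 2.27. It ranked 34 from the top among the differences of 14860 genes. Of 542 genes whose mean in cells lay within 0.5 of its own, itself included, 0 had a larger difference, and their median was -1.67. The set was chosen because Eif4ebp2 rose, so nothing is read from these ranks. The exosome arrays were tight, with an SD of 0.05, the smallest of the 9 genes in that group. Its binding partner Eif4e, the cap-binding protein, had 6.07, 4.82, 5.94 and 6.43 in exosomes, against 7.33, 7.42, 7.11 and 7.21 in cells. Eif4e was above background on 1 of 4 exosome arrays and on all 4 cell arrays, and its log2 difference was -1.45 ± 0.31 (limma adjusted p = 0.00341), with replicate 2 the lowest exosome array. That call was lost with quantile normalization (-0.68) and cyclic loess (-0.61). Eif4ebp3 had no transcript cluster with its symbol alone and is not analysed here.

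**Figure D2:**
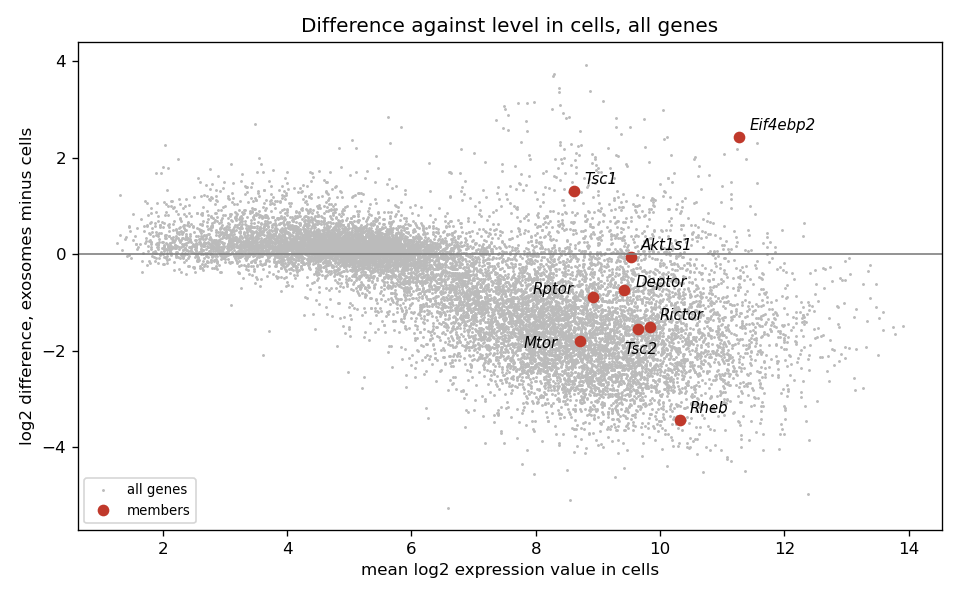
Log2 difference of exosomes minus cells (vertical axis) against the mean log2 value in cells (horizontal axis) for all 14860 genes (grey) and the 9 genes (red). Eif4ebp2 and Tsc1, whose rise led to the choice of the set, lie above nearly all genes of like level in cells. Mtor, Rictor and Tsc2 lie within the bulk and Rheb near its lower edge.

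Genes of middle and high level in cells were mostly lower in exosomes, so each gene was also placed among genes of like level in cells (mean within 0.5). Tsc1 exceeded 97.5% of 2260 such genes, but the set was chosen because it rose, so nothing is read from that place. Akt1s1 exceeded 89.8% of 1772, although Akt1s1 hardly differed between the groups. Deptor exceeded 77.8% and Rptor 74.4% of theirs. Rictor at 56.8%, Tsc2 at 55.6% and Mtor at 42.8% lay close to the middle, where the medians were -1.73, -1.74 and -1.64. Rheb exceeded 3.91% of 1151 genes, whose median difference was -1.68. The differences of Tsc2, Rictor and Mtor were thus close to the median of genes of their level.

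In order of difference the genes ran Eif4ebp2, Tsc1, Akt1s1, Deptor, Rptor, Rictor, Tsc2, Mtor, Rheb. The first places of Eif4ebp2 and Tsc1 were fixed by the choice of the set. Most neighbours in this order were apart on every array. The within-array ratio of Eif4ebp2 to Tsc1 differed between the groups by 1.12 ± 0.04 (SE), that of Tsc1 to Akt1s1 by 1.36 ± 0.04, and that of Mtor to Rheb by 1.64 ± 0.19. Between Rictor and Tsc2 the gap was 0.04 ± 0.06, and between Deptor and Rptor it was 0.15 ± 0.07, and in both cases the within-array ratios of the groups overlapped. These are gaps in the deposited values. With quantile normalization and cyclic loess the gap of Eif4ebp2 to Tsc1 shrank to 0.35 and 0.39. That of Tsc1 to Akt1s1 was 1.40 under both, and that of Mtor to Rheb was 1.86 and 1.63.

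The sign of the smaller differences depended on how the arrays were scaled. For all genes together the median log2 difference was -0.39 in the deposited values. It became 0.03 with quantile normalization, 0.01 with cyclic loess and -0.98 when arrays were centred on the receptor genes. Eif4ebp2 was higher under all 4, with log2 differences of 1.83 to 3.08, as was Tsc1, with 0.71 to 2.69. Rheb was lower under all 4, from -4.04 to -1.99, as was Mtor, from -2.40 to -0.36. These 4 genes kept the same call under all 4 scalings. Tsc2, from -2.15 to -0.12, and Rictor, from -2.11 to -0.11, were also lower under all 4, but neither was called after cyclic loess. Rptor, Deptor and Akt1s1 were called higher after quantile normalization and cyclic loess, and all 3 were lower after centring, where Akt1s1 was at -0.65. The order of the genes was the same under each scaling, except that Tsc2 and Rictor changed places after quantile normalization.

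**Figure D3:**
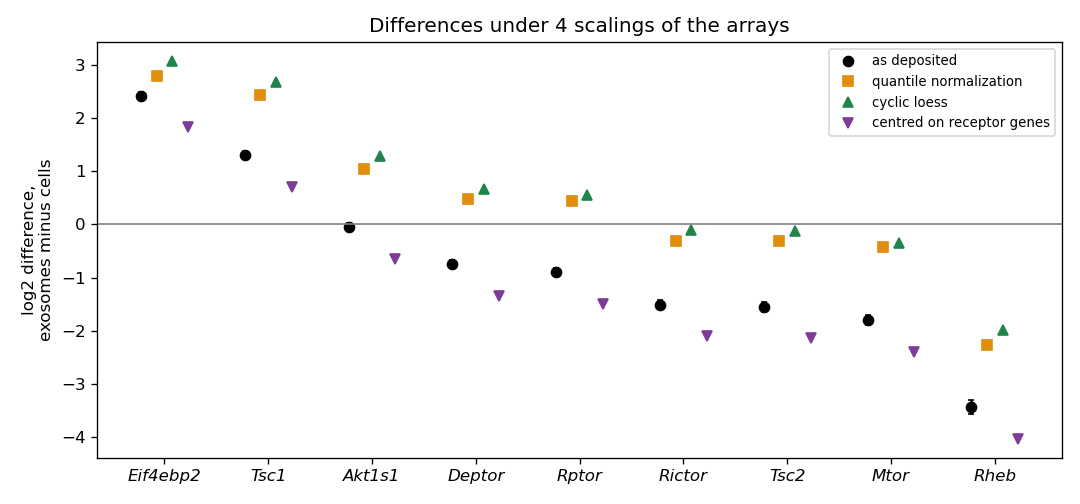
Log2 difference of exosomes minus cells (vertical axis) for each gene as deposited (black, with SE) and after 3 other scalings of the arrays. Centring on receptor genes shifts all genes down by the same amount, while quantile normalization and cyclic loess shift them up by unequal amounts. Eif4ebp2 and Tsc1 stay above 0, Rictor, Tsc2, Mtor and Rheb stay below 0, and Akt1s1, Deptor and Rptor cross it.

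Within a group, most of the 9 genes deviated to the same side on several arrays. Exosome replicate 4 lay above the group mean for 8 of 9 genes and replicate 1 below it for 8 of 9. Cell replicate 1 lay above its group mean for 8 of 9, while replicates 2 and 4 each lay below it for 8 of 9. In the deposited values these shifts had median deviations of -0.08 to 0.09 in exosomes and -0.06 to 0.11 in cells. They were small against the between-group differences there, 0.75 to 3.44 in size for all genes but Akt1s1. With cyclic loess, however, the differences of Tsc2 and Rictor were only -0.12 and -0.11.

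The genes whose pattern over the 8 arrays was nearest to that of Eif4ebp2, by root mean square distance after each gene's mean was removed, were Rapgef1 (0.05), an exchange factor for Rap GTPases, Sft2d2 (0.06), a protein of vesicle transport, and Wsb2 (0.07), a SOCS box protein. Their log2 differences were 2.39, 2.42 and 2.31. For Tsc1 they were Lsm11 (0.04), a component of the U7 particle that processes histone mRNA, Ttc7 (0.05) and Fbxl19 (0.05), an F-box protein, with differences of 1.31, 1.32 and 1.35. The search covered 9202 genes above background in at least 1 group. Since Eif4ebp2 and Tsc1 were chosen for their difference, the likeness is mainly that of the difference.

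The wider pathway was read from 6 lists of genes around the core, of which 82 of 103 genes were measured. In exosomes 6 of the 82 rose and 67 fell, and 9 did not pass the limma test, with a median log2 difference of -1.24. This is 7.32% higher and 81.7% lower. Of all genes above background on the cell arrays, as 80 of the 82 were, 7.27% were higher and 79.9% lower, so the wider pathway was close to what genes of the cells did in general. Of the calls over all genes, 21.9% were higher as deposited, 47.5% with quantile normalization, 48.6% with cyclic loess and 2.88% with centring on receptor genes.

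**Figure D4:**
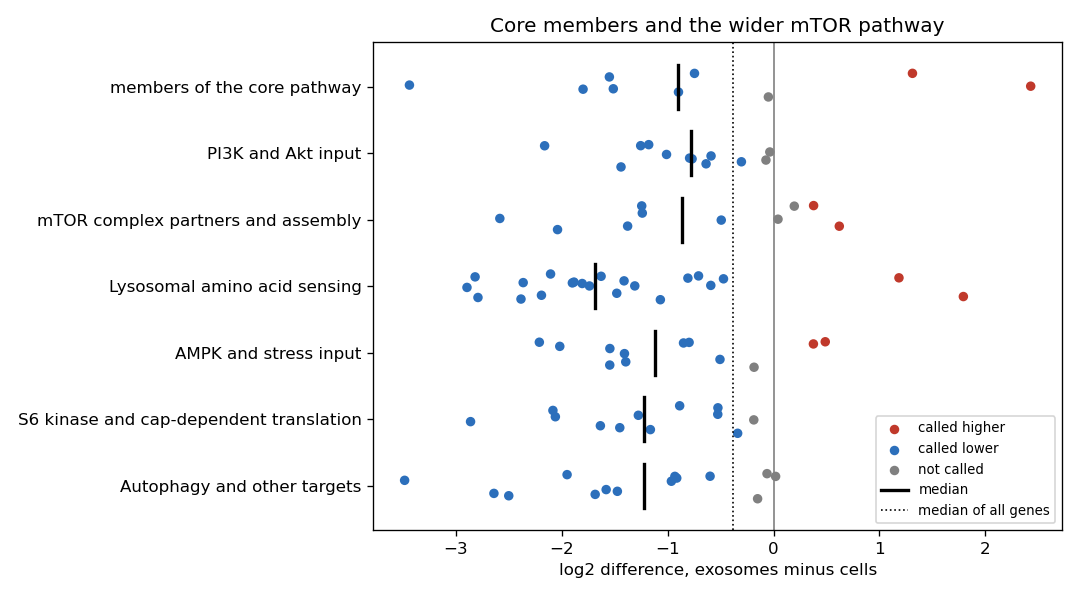
Log2 difference of exosomes minus cells (horizontal axis) for the 9 core genes and for 6 lists of the wider pathway (rows), coloured by the limma call, with list medians (black bars) and the median of all genes, -0.39 (dotted). Each list lies mostly below 0, and the few genes called higher are in the core, the complex partners, lysosomal sensing and AMPK rows.

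The lysosomal amino acid sensing list held the rises that came closest to those of the core. It covers the Rag GTPases that recruit mTORC1 to the lysosome and the proteins that regulate them. As deposited, 2 of 22 measured genes rose and 20 fell (median -1.68). Of all genes above background on the cell arrays, 7.27% were higher and 79.9% lower. The list had 7 genes higher and 13 lower with both quantile normalization and cyclic loess. Castor2, a homologue of the arginine sensor Castor1, had 10.04, 10.23, 10.14 and 10.19 in exosomes, against 8.63, 8.17, 8.40 and 8.23 in cells. It rose 3.46-fold (log2 difference 1.79 ± 0.11 SE, n = 4 per group, limma adjusted p = 1.02e-06), and a second transcript cluster of the gene had a difference of 2.10. Sesn3, a sestrin, rose 2.27-fold, with 10.82, 10.79, 11.03 and 11.04 in exosomes, against 9.84, 9.68, 9.68 and 9.73 in cells (1.18 ± 0.09, limma adjusted p = 3.43e-06). Sestrins and Castor proteins are known to restrain mTORC1 through the GATOR2 complex. Castor2 and Sesn3 were the only genes of the 82 called higher under all 4 scalings. The difference of Castor2 was larger than that of Tsc1 (1.31 as deposited) under each scaling. Other inhibitors of the list were lower as deposited, but not all under each scaling. Depdc5, a subunit of GATOR1, and Castor1 were called higher with quantile normalization (0.70 and 0.76) and cyclic loess (0.85 and 0.80), and Sesn2 was not called there. Nprl2 and Sesn1 were lower under each scaling. Nprl2, a further subunit of GATOR1, which switches the Rag GTPases off, was at least 3.18-fold lower in exosomes, and Sesn1, a second sestrin, at least 4.76-fold lower. Neither was above background on any exosome array, and the bounds are taken against the threshold of those arrays (limma adjusted p = 6.81e-08 and 2.57e-07).

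Of 12 measured genes of the PI3K and Akt input, which carries growth factor signals, 10 fell and 0 rose by limma (median -0.78). At an unadjusted p under 0.05 the number higher was also 0. With quantile normalization and with cyclic loess the list turned round, to 8 higher and 1 lower in each. As deposited, 79.9% of all genes above background on the cell arrays were lower and 7.27% higher. The calls over all genes moved as well, from 21.9% higher as deposited to 47.5% and 48.6% under these 2 scalings. What turned the list round was not tested. Phlpp1, a phosphatase that inactivates Akt, fell 4.48-fold, and the insulin receptor gene Insr fell 2.72-fold (limma adjusted p = 9.61e-08 and 1.39e-06). Their exosome values lay only 0.52 and 0.28 above the background threshold on average. Phlpp1 was lower under each scaling, while the call of Insr was lost with quantile normalization (-0.11) and cyclic loess (-0.07). Of 10 genes of complex partners and assembly, 2 rose and 6 fell (median -0.87), against 3 higher and 4 lower with quantile normalization and 3 and 3 with cyclic loess. Telo2, which with its partners folds mTOR and related kinases, rose 1.54-fold (0.62 ± 0.07, limma adjusted p = 6.43e-05), while Tti2, a partner of Telo2, was at least 3.33-fold lower. Prr5, an mTORC2 subunit, rose 1.30-fold (0.38 ± 0.10, limma adjusted p = 0.0123). The rises of Telo2 and Prr5 ended when arrays were centred on receptor genes, with differences of 0.02 and -0.22.

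Of 12 genes of AMPK and stress input, which slows mTORC1 when energy is short, 2 rose and 9 fell (median -1.12). As deposited, 7.27% of all genes above background on the cell arrays were higher and 79.9% lower. The list had 4 genes higher and 6 lower with quantile normalization, and 6 and 4 with cyclic loess. The AMPK scaffold subunits went opposite ways. Prkab2 rose 1.40-fold and Prkab1 fell 4.64-fold (log2 differences 0.49 ± 0.11 and -2.21 ± 0.09, limma adjusted p = 0.00428 and 8.86e-08). Stk11, the kinase that activates AMPK, rose 1.30-fold (0.38 ± 0.07, limma adjusted p = 0.00137), but was lower by centring on receptor genes (-0.22), where Prkab2 was at -0.11. Ddit4l, an inhibitor of mTORC1 in stress, was at least 1.97-fold lower.

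Downstream of mTORC1, 11 of 12 measured genes (18 listed) of S6 kinase and cap-dependent translation fell (median -1.22). Of all genes above background on the cell arrays, 79.9% were lower as deposited. The list had 1 gene higher and 4 lower with quantile normalization, and 3 and 3 with cyclic loess. Pdcd4, which blocks the helicase eIF4A, fell 7.28-fold (limma adjusted p = 2.46e-07), and Eif4e3, a relative of Eif4e, was at least 3.42-fold lower. Unlike Eif4ebp2, the translation inhibitor Pdcd4 was lower in exosomes under each scaling, with log2 differences of -3.46 to -1.46. Of 14 autophagy and other targets, 11 fell (median -1.22), against 5 higher and 7 lower with quantile normalization and 5 and 6 with cyclic loess. Hif1a, the hypoxia factor whose translation mTORC1 favours, fell 11.2-fold (-3.49 ± 0.13, limma adjusted p = 7.81e-08), and Rb1cc1, a subunit of the complex that starts autophagy, was at least 1.80-fold lower.

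Over all lists the counts moved likewise. Of the 82 genes, 28 were higher and 35 lower with quantile normalization, 32 and 30 with cyclic loess, and 2 and 77 with arrays centred on receptor genes. Of all 14860 genes, 4476 were higher and 4956 lower with quantile normalization. The counts over all genes were 4603 and 4872 with cyclic loess, and 364 and 12274 with centring. Among the 82, the directions of 27 genes changed between scalings with a call on both sides, while 30 were lower under all 4. Among these 30 were Tbc1d7, Nprl2, Sesn1, Pdcd4 and Hif1a.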

How the data were processed

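Total RNA of 4 exosome and 4 cell samples was measured on 8 Affymetrix mouse exon arrays. The deposited values are log2 expression values. The authors made them with RMA in Affymetrix Expression Console on the build mm8, per the submitters' processing notes, and averaged a gene's core probesets, per the series text. Neither versions nor the method of exosome isolation is stated in the labels used. Of 23332 transcript clusters, 14996 had 1 gene symbol in the platform table, 1019 had several and 7317 were unnamed here. Where a gene had several clusters, the cluster of highest mean was used.

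Exosomes were compared with cells by limma 3.58.1 in R 4.3.3 (lmFit, eBayes, two-sided) over all clusters, with Benjamini-Hochberg adjustment and calls at 0.05. Folds are powers of 2 of differences in mean log2 values. Genes above background on no exosome array are given as bounds. The members, lists and tests were chosen with earlier results of these data known. Named beside the members were Mlst8, Eif4e and Tbc1d7, the 2 largest rises and falls called in each list that were above background in the higher group, and the 3 nearest patterns; second clusters, Castor1, Depdc5, Sesn2 and marker genes named for what a count holds are exceptions. In simulated data of 23332 clusters for this comparison, limma recovered 30% of changes of 0.5, 64% of 1, 90% of 2 and 100% of 3 (log2), with 10 calls among 23132 unchanged clusters. The simulation changed 50 clusters of each size, whereas 66.6% of all genes were called in the data. These shares therefore do not measure recovery in the data themselves. No arrays held identical values. The number of arrays limits the precision. Alternatives were other scalings, a filter on dim signals, another variance prior, the replicate number as a block, the mean of a gene's clusters, a 99th percentile background and leaving out each array. Plots were made in Python 3.11.15 using matplotlib 3.10.9.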

Additional observations from a re-analysis of the deposited data

Results flagged for a closer look

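A sample far from the other 3 of its group was found in 4 of 70 groups of named genes, where chance gives about 1 in 20. Among the core genes this was Rictor in cells, where replicate 1 had a log2 value of 9.88 and the others 9.81 to 9.82. This deviation is small beside the difference of -1.51 between the groups. In exosomes, Tbc1d7 was lowest on replicate 1 at 7.94, with the others at 8.01 to 8.03. Replicate 2 was the lowest exosome array for Hif1a, at 7.40 with the others at 7.87 to 7.96, and for Prr5, at 7.22 with the others at 7.57 to 7.63.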

How the results depend on the processing

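The scaling of the arrays moved the counts of the core and of the wider lists, and both the scaling and the filter on dim signals moved the counts over all clusters. Over all transcript clusters, 3818 were called higher and 10008 lower as deposited. Quantile normalization gave 6627 and 6582, cyclic loess 6799 and 6490, and centring on receptor genes 1058 and 16682. With only clusters above background in a group, 1481 were called higher and 9202 lower. Why the higher calls fell more than the lower calls was not tested. Of the 9 core genes, 5 were higher after quantile normalization, and 5 higher and 2 lower after cyclic loess. Rptor reversed to 0.45 and 0.56 and Deptor to 0.48 and 0.66 under these scalings, and the cause was not tested. Of the 82 wider genes, 28 were higher and 35 lower by quantile normalization, 32 and 30 by cyclic loess, and 2 were higher by centring. The counts of the core (2 higher, 6 lower) and of the wider lists (6 higher, 67 lower) were the same with dim signals filtered out, with a robust and trended prior, and with the mean of a gene's clusters. Leaving out each array gave 3271 to 3602 clusters higher and 9692 to 9904 lower, 2 core genes higher and 6 lower, 6 wider genes higher and 67 to 68 lower, and 9 core genes above background in each group. With the replicate number as a block, 3416 clusters were higher and 9811 lower, with the core and wider counts as before. Deviations of arrays with the same number correlated between -0.05 and 0.00, so the numbers gave no sign of pairing. At the 99th percentile of receptor genes 7 of 9 core genes were above background on all exosome arrays, without Rheb and Mtor, whose exosome levels are the least certain of the set.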
